A study of Mus musculus with 5 samples.

Results

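The aryl hydrocarbon receptor (AHR) and its battery of target genes were followed here in B9 cells, mouse cells that the labels assign to cutaneous squamous cell carcinoma with the genotype HRAS-Q61L. The genes were 8 chosen by name: Ahr, Arnt, Ahrr, Cyp1a1, Cyp1b1, Tiparp, Nqo1 and Aldh3a1. Every probe set annotated with 1 of these symbols and no other was taken, which gave 17 probe sets. The 8 genes are among 18193 genes that the arrays measured with at least 1 such probe set. RNA came from cells kept for 17 h with 1 µM vemurafenib (PLX4032; 2 arrays), with 1 µM PLX7904 (2 arrays), or with DMSO alone (1 array). Vemurafenib is a BRAF inhibitor in clinical use, and PLX7904 belongs to a later class of RAF inhibitors known as paradox breakers. All 5 arrays therefore carry the oncogenic HRAS allele, and all stem from 1 cell line. DMSO is stated as 0.2% for the control, and the 2.4 µL of 5 mM stock added to 12 mL of medium amount to 0.02%, so the solvent of the treated dishes and that of the control may differ. The labels call the arrays biological replicates and say no more about the cultures, so the p-values below measure spread between arrays. That spread is taken from the 2 arrays of each compound and from other genes of similar signal, as 1 DMSO array holds none.

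AHR is a ligand-activated transcription factor of the basic helix-loop-helix PAS family. It waits in the cytoplasm with the chaperone HSP90, moves to the nucleus when it binds a ligand such as a dioxin, a polycyclic aromatic hydrocarbon or a tryptophan metabolite, pairs with ARNT, and binds DNA at xenobiotic response elements with the core GCGTG. The targets include the oxidising enzymes CYP1A1 and CYP1B1 and 2 proteins that turn the receptor down, the repressor AHRR and the ADP-ribosyltransferase TIPARP. In skin, keratinocytes carry the receptor and respond to its ligands.

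The promoters of Cyp1b1 and Tiparp are shown because these are the members whose signal passed a test below, and that of Cyp1a1 because it is the most widely used readout of the receptor. Each line gives the 250 bases before a transcript start that the RefSeq promoter table lists for the gene, 5′ to 3′ on the gene's own strand, on GRCm38.p6. For Cyp1a1 that start lies inside the span annotated for the gene, chr9:57687928-57703824, and for Cyp1b1 and Tiparp it is the 5′ end of the span. Capitals mark the core GCGTG, or CACGC where the core lies on the other strand. Cyp1b1 is read from chr17:79715062-79715311 on the minus strand, Tiparp from chr3:65528197-65528446 on the plus strand, and Cyp1a1 from chr9:57697363-57697612 on the plus strand.
Cyp1b1: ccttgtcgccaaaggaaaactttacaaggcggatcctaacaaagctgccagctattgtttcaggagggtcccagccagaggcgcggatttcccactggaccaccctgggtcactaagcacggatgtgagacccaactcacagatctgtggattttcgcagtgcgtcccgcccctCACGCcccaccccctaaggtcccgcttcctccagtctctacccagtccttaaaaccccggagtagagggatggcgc
Tiparp: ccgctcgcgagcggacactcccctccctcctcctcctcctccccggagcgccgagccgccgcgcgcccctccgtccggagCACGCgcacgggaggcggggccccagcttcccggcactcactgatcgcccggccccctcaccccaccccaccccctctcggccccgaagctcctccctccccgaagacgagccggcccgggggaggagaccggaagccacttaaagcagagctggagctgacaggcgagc
Cyp1a1: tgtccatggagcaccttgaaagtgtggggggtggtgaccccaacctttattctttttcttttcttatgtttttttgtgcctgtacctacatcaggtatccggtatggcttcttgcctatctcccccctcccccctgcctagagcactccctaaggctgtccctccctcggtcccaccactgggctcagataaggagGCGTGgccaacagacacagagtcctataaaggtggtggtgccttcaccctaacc
Each of the 3 holds the core once, at 76 bases before the start in Cyp1b1, 170 bases in Tiparp and 54 bases in Cyp1a1, counted from that start to the leftmost base of the match as printed. The table matched 6 of the 8 genes. Ahrr held the core 3 times and Arnt once, and Nqo1 held 0. Over both strands, 9250 of 32851 promoters of the same length hold GCGTG, or 28.2%, and 1347 hold the longer TNGCGTG, or 4.1%. The longer form contains the core, and of the 6 members Ahrr held it. A match in so common a motif describes these letters and locates no binding site.

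The values are MAS5 signals, on a linear scale in arbitrary units, in which every array has a trimmed mean near 499.8. Dim probe sets scatter widely in MAS5, so a gene was tested where the brightest of its probe sets averaged 47.4 or more, 47.4 being the median signal of the whole table. By that limit 5 members were tested, Ahr, Arnt, Cyp1b1, Tiparp and Aldh3a1, and each of the 5 lay above it in every group mean. Ahrr, Cyp1a1 and Nqo1 did not reach the limit and are given as values. Keratinocyte markers were present, with 8 of 8 above the limit, Krt5, Krt14 and Trp63 among them. Their summed signal was 84958 and 85611 on the vemurafenib arrays, 82251 to 83158 on the PLX7904 arrays and 80618 on the DMSO array. Differences are of log2(signal + 3.34), which understates the change of dim genes, and a gene passed where the adjusted p from limma over 10852 tested genes was below 0.05. With 1 DMSO array, the variance of every comparison was estimated from the 4 treated arrays. Both comparisons with DMSO share that array. In bulk RNA, fewer cells of a type and less RNA per cell cannot be told apart.

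In vemurafenib-treated cells 1 of the 5 tested members fell against DMSO, Cyp1b1, and 0 rose. Over all genes 10.6% passed in this comparison, 5.21% lower and 5.43% higher. In PLX7904-treated cells 0 of the 5 passed against DMSO, as did 0 of all tested genes in limma (0%), with 722 of them at an unadjusted p under 0.05. Between the compounds, at the same dose and time, Tiparp was higher and Cyp1b1 was lower with vemurafenib, where 13.3% of all genes passed, 6.43% higher and 6.87% lower. The median log2 difference of the 5 members was −0.29 for vemurafenib against DMSO, −0.13 for PLX7904 against DMSO and −0.09 for vemurafenib against PLX7904. Over all genes these medians were −0.05, −0.01 and −0.04.

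**Figure D1:**
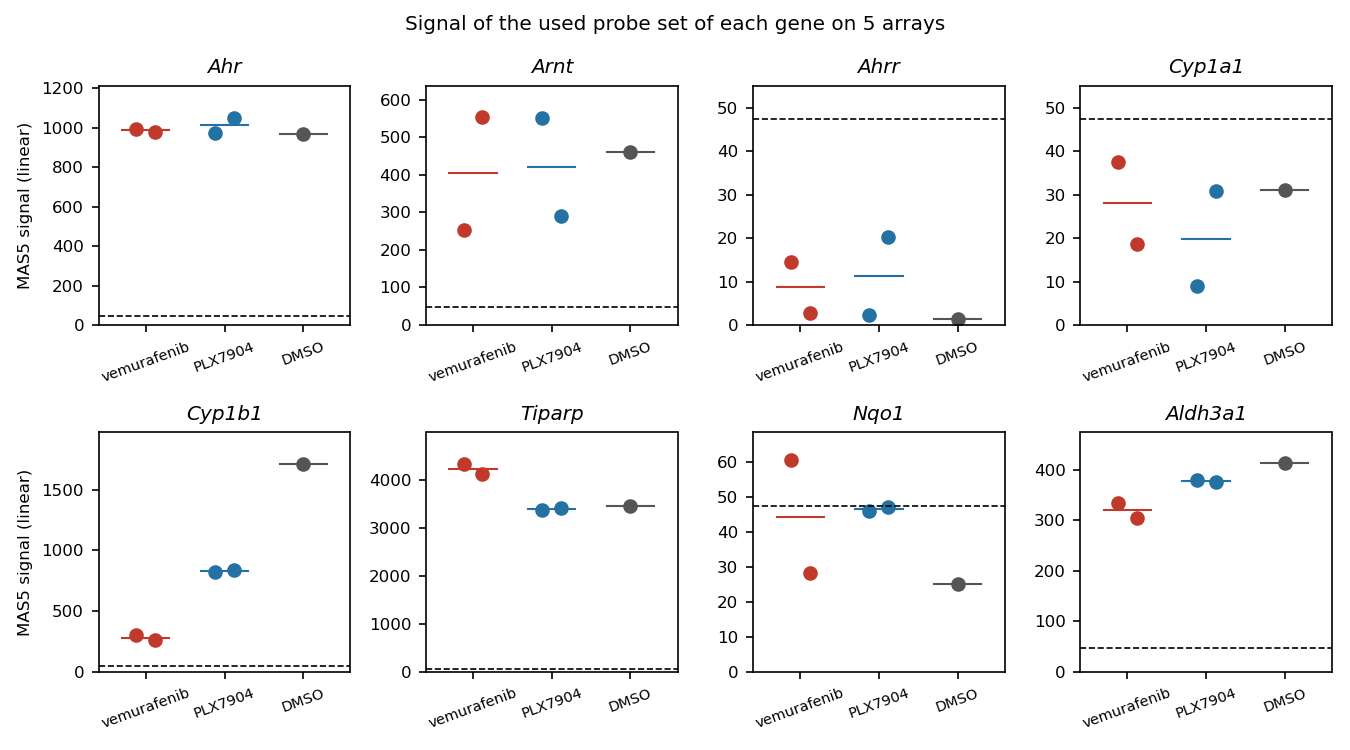
MAS5 signal (linear scale, arbitrary units) of the probe set used for each of the 8 genes, 1 panel per gene, by treatment. Points are arrays, horizontal lines are group means, and the dashed line is the filter at 47.4. Each panel has its own scale. Cyp1b1 is ordered vemurafenib, PLX7904, DMSO from low to high with no overlap, Tiparp is high on both vemurafenib arrays, and Ahrr and Cyp1a1 lie under the filter on every array.

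The receptor itself, Ahr, showed nearly the same signal on all 5 arrays. It was 994 and 976 with vemurafenib, 971 and 1050 with PLX7904 and 967 with DMSO. The compounds overlap, and the DMSO array lies just under all 4 treated arrays. The log2 difference of vemurafenib against DMSO was 0.03, with a 95% interval of −0.23 to 0.28 and adjusted p 0.916 in limma. For PLX7904 against DMSO it was 0.06 (−0.19 to 0.32; adjusted p 0.966 in limma), and between the compounds −0.04 (−0.24 to 0.17; adjusted p 0.847 in limma). All 3 intervals contain 0. The other Ahr probe set was dim, at 41.3 and 57.3 with vemurafenib, 73.9 and 24.4 with PLX7904 and 46.2 with DMSO, and its groups overlap.

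Arnt encodes the partner without which AHR does not bind its elements, and which also pairs with the hypoxia factor HIF1A. Its brightest probe set, 1437042_at, gave 254 and 553 with vemurafenib, 551 and 290.4 with PLX7904 and 460 with DMSO. Arrays of 1 treatment thus differed by as much as arrays of different treatments, and both treatments span the DMSO value. The log2 difference was −0.29 for vemurafenib against DMSO, with an interval of −1.21 to 0.63 and adjusted p 0.706 in limma, a width that would cover a fall or a rise of appreciable size. Between the compounds it was −0.09 (−0.85 to 0.66; adjusted p 0.894 in limma). Without vemurafenib replicate 2 Arnt was called lower with vemurafenib, by −0.85 against DMSO (adjusted p 0.0183, limma) and −0.65 against PLX7904 (adjusted p 0.0381, limma), and without vemurafenib replicate 1 both values were above 0, at 0.27 and 0.46. Of the other 4 Arnt probe sets, the 2 above the limit varied less. The first of them, 1419996_s_at, gave 191 and 206 with vemurafenib, 182 and 161 with PLX7904 and 251 with DMSO. The second, 1421721_a_at, gave 67.6 and 58.9 with vemurafenib, 77.4 and 89.7 with PLX7904 and 82.0 with DMSO. On both the DMSO array lay above both vemurafenib arrays.

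The negative regulators differed in how well they could be read. Ahrr, which competes with AHR for ARNT, had a signal of 14.6 and 2.76 with vemurafenib, 2.37 and 20.3 with PLX7904 and 1.29 with DMSO, below the limit on every array. Its 2 replicates within each compound differed by more than the groups did, so that Ahrr is given as values only.

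Tiparp, the ADP-ribosyltransferase that modifies AHR and promotes its loss, had 3 probe sets above the limit, and all 3 gave the same picture. The brightest, 1452160_at, gave 4322 and 4119 with vemurafenib, 3363 and 3412 with PLX7904 and 3447 with DMSO. The group means were 4221 ± 143 with vemurafenib and 3388 ± 34.8 with PLX7904 (SD, n = 2 each), against 3447 on the single DMSO array. Both vemurafenib arrays lay above both PLX7904 arrays and above DMSO, and PLX7904 and DMSO lay side by side. Vemurafenib exceeded PLX7904 by 0.32 on the log2 scale (SE 0.07; adjusted p 0.0139 in limma), which is 1.25-fold with a 95% interval of 1.12 to 1.39. Against DMSO the same compound gave 0.29 (SE 0.08; interval 0.10 to 0.48) and missed the threshold at adjusted p 0.0549 in limma. PLX7904 against DMSO gave −0.03 (−0.21 to 0.16; adjusted p 0.987 in limma).

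The other 2 Tiparp probe sets are set beside the first because they are aimed at the same design sequence and are no independent measurements. The second, 1426721_s_at, gave 4392 and 4356 with vemurafenib, 3253 and 3515 with PLX7904 and 3182 with DMSO. The third, 1452161_at, gave 1837 and 1678 with vemurafenib, 1172 and 1306 with PLX7904 and 1305 with DMSO. In both the vemurafenib arrays were above all others. When every probe set was fitted on its own in limma, vemurafenib exceeded PLX7904 by 0.32, 0.37 and 0.50 on the log2 scale (adjusted p 0.0215, 0.0129 and 0.0114), where 9.17% of all probe sets passed. Against DMSO the values were 0.29, 0.46 and 0.43 (adjusted p 0.0748, 0.0155 and 0.0604), where 7.15% passed. The call between the compounds was lost without vemurafenib replicate 1 (0.28, adjusted p 0.131) and without the intensity trend in limma (adjusted p 0.131). The value against DMSO passed under 8 of 17 other settings, with adjusted p over them between 0.0316 and 0.276. Tiparp lies among the 1085 tested genes with signals of 2419 to 4643, whose median log2 difference was 0.01 for vemurafenib against DMSO.

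**Figure D2:**
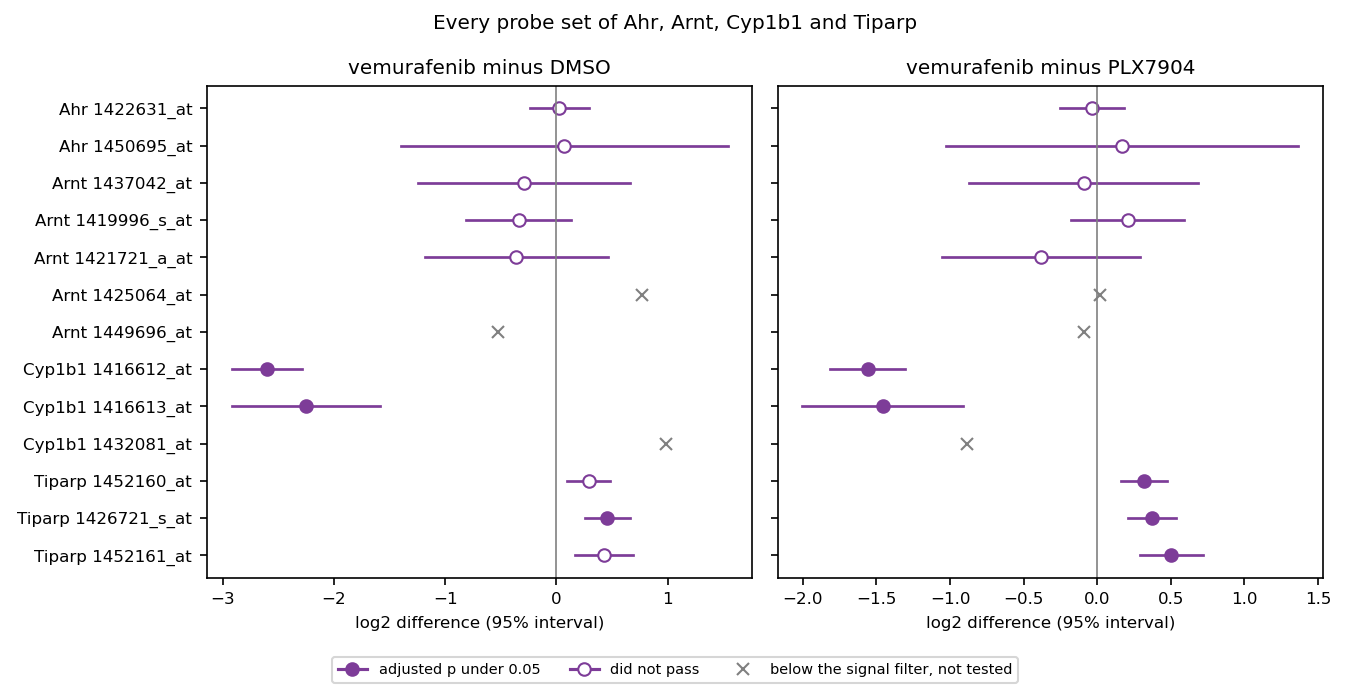
Log2 difference with its 95% interval, from limma fitted to every probe set, for the members with more than 1 probe set, for vemurafenib against PLX7904 and against DMSO. Filled points passed, open points did not, and crosses are probe sets below the filter, given without a test. All 3 Tiparp probe sets lie to the right of 0 and the 2 tested Cyp1b1 probe sets far to its left, while the cross of the third Cyp1b1 probe set lies at 0.98 against DMSO.

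Cyp1b1 had the clearest difference of the 8 genes. It encodes a cytochrome P450 that oxidises polycyclic aromatic hydrocarbons, oestradiol and retinoids, and it is a target of AHR in many epithelia. Its brightest probe set, 1416612_at, gave 298 and 262 with vemurafenib, 821 and 838 with PLX7904 and 1709 with DMSO. The 3 treatments do not overlap, and replicates lie close together. The group means were 279.9 ± 25.4 with vemurafenib and 829 ± 12.3 with PLX7904 (SD, n = 2 each), against the single 1709 of DMSO.

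Against DMSO, Cyp1b1 fell by 2.60 on the log2 scale with vemurafenib (SE 0.14; interval −2.90 to −2.30; adjusted p 5.32e-06 in limma). That is 6.06 times lower, with an interval of 4.92 to 7.46, and rank 3 among the most negative differences of 10852 genes. Without the intensity trend Cyp1b1 passed narrowly, at adjusted p 0.0439 (limma). It was also lower with vemurafenib than with PLX7904, by −1.56 (SE 0.11; −1.80 to −1.31; adjusted p 2.81e-05 in limma), or 2.95 times (2.49 to 3.49). PLX7904 against DMSO gave −1.04 (SE 0.14; −1.34 to −0.74), 2.06 times lower, with adjusted p 0.0563 in limma, which did not pass. Both PLX7904 arrays lay below the DMSO array, and the difference had rank 46 among the most negative. It did pass under 6 of 17 other settings, the median centring of arrays (adjusted p 0.00596) and the fits without vemurafenib replicate 1 or 2 (8.83e-05 and 9.24e-05) among them, with adjusted p over all of them between 8.83e-05 and 0.999. The 1085 tested genes with signals of 665 to 971 had a median of −0.08 for vemurafenib against DMSO, −0.03 for PLX7904 against DMSO and −0.04 between the compounds.

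The other Cyp1b1 probe sets did not all follow. The second, 1416613_at, which shares a design sequence with the first, gave 68.7 and 73.7 with vemurafenib, 159.8 and 254 with PLX7904 and 351 with DMSO, in the same order and again without overlap. Fitted on its own in limma it was lower with vemurafenib, by −2.25 against DMSO (adjusted p 0.00260) and by −1.46 against PLX7904 (adjusted p 0.00635), and with PLX7904 against DMSO it was at −0.79 and did not pass (adjusted p 0.740). The third, 1432081_at, was below the limit, at 29.4 and 3.60 with vemurafenib, 19.4 and 30.8 with PLX7904 and 4.29 with DMSO. There the vemurafenib arrays overlap PLX7904 and lie on either side of DMSO, and both PLX7904 arrays lie above DMSO. Averaging all 3 probe sets with equal weight, the dim one included, gave −1.29 for vemurafenib against DMSO (adjusted p 0.117), −1.30 against PLX7904 (adjusted p 0.0528) and 0.01 for PLX7904 against DMSO (limma), so that both calls were lost. Averaging the 2 probe sets above the limit, a setting added after the values were seen, gave −2.43 (adjusted p 2.84e-04), −1.51 (adjusted p 8.31e-04) and −0.92 (adjusted p 0.452) in limma.

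**Figure D3:**
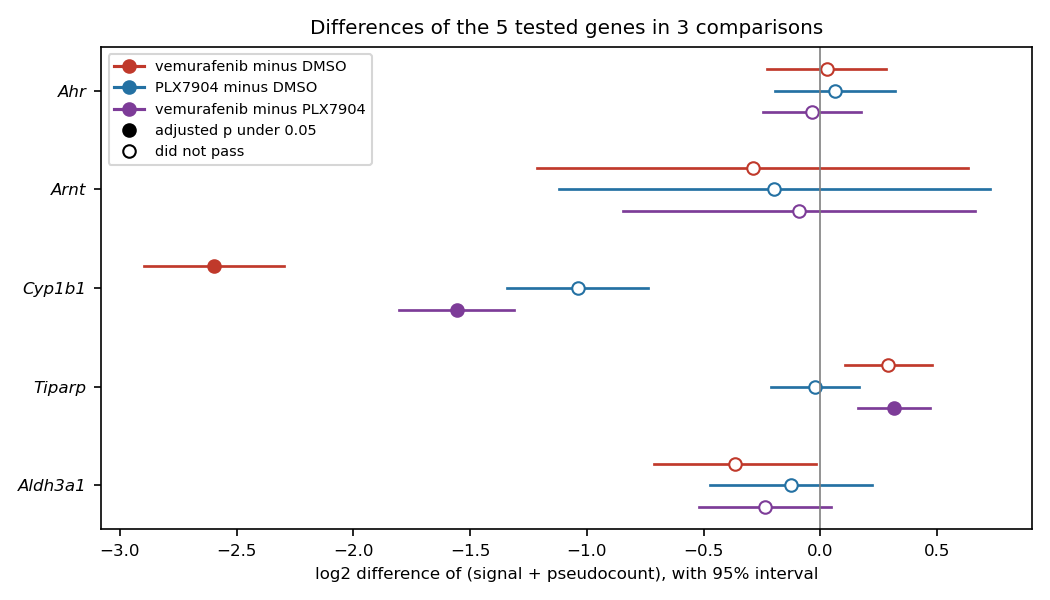
Log2 difference with its 95% interval from limma for the 5 tested genes, in the 3 comparisons. Cyp1b1 is at −2.60 for vemurafenib against DMSO, −1.04 for PLX7904 against DMSO and −1.56 between the compounds, while the intervals of Ahr and Arnt contain 0 in all 3.

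The remaining enzymes of the battery were not tested or did not pass. Cyp1a1, the close relative of Cyp1b1, had 37.5 and 18.6 with vemurafenib, 8.96 and 30.8 with PLX7904 and 31.0 with DMSO, all below the limit. The vemurafenib arrays overlap PLX7904 and lie on either side of DMSO, which is just above the higher PLX7904 array. Without the limit its log2 difference was −0.20 for vemurafenib against DMSO and −0.74 for PLX7904 against DMSO, with adjusted p 0.952 and 0.959 in limma. No statement on whether Cyp1a1 moved with Cyp1b1 can be made at this signal.

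Nqo1, the quinone reductase that both AHR and NRF2 induce, had 60.4 and 28.2 with vemurafenib, 45.9 and 47.0 with PLX7904 and 24.99 with DMSO. A single vemurafenib array was above the limit, and the other lay below both PLX7904 arrays. Without the limit its log2 difference was 0.66 for vemurafenib against DMSO (adjusted p 0.687) and 0.81 for PLX7904 against DMSO (adjusted p 0.945) in limma.

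Aldh3a1, which oxidises aldehydes in cornea and other surface epithelia, gave 335 and 305 with vemurafenib, 379 and 376 with PLX7904 and 412 with DMSO. The 3 groups do not overlap and keep the order seen for Cyp1b1, with much smaller distances. The log2 difference was −0.36 for vemurafenib against DMSO (interval −0.71 to −0.02; adjusted p 0.174 in limma), which did not pass. It was −0.24 between the compounds (−0.52 to 0.05; adjusted p 0.266) and −0.13 for PLX7904 against DMSO (−0.47 to 0.22; adjusted p 0.931) in limma. Tested genes of similar signal had a median of −0.12 for vemurafenib against DMSO.

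The genes whose pattern over the 5 arrays was most like that of Cyp1b1 were Acta2, Tppp3 and Epha7. Likeness was measured as the distance between log2 values after each gene's own mean was removed, and these distances were 0.42, 0.59 and 0.67, with Pearson r over the 5 arrays of 0.985, 0.970 and 0.957 as a description. Acta2, the smooth muscle actin, had 156 and 135 with vemurafenib, 513 and 411 with PLX7904 and 722 with DMSO. Tppp3, a tubulin-binding protein, had 89.0 and 89.6 with vemurafenib, 319.9 and 294 with PLX7904 and 402 with DMSO. Epha7, an ephrin receptor, had 68.7 and 92.9 with vemurafenib, 244 and 333 with PLX7904 and 417 with DMSO. All 3 share the order vemurafenib, PLX7904, DMSO from low to high, with no overlap. Their choice by likeness to Cyp1b1 on the same arrays largely sets that order. For Tiparp the nearest were Akirin1, Flii and Sec63, at distances of 0.03, 0.03 and 0.04. Flii, an actin-binding protein of the gelsolin family, had 2084 and 1960.4 with vemurafenib, 1582 and 1609 with PLX7904 and 1621 with DMSO. These are the nearest among the 10852 tested genes over 5 arrays, with unnamed gene models passed over. Such models have symbols that end in Rik or start with Gm and a digit.

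**Figure D4:**
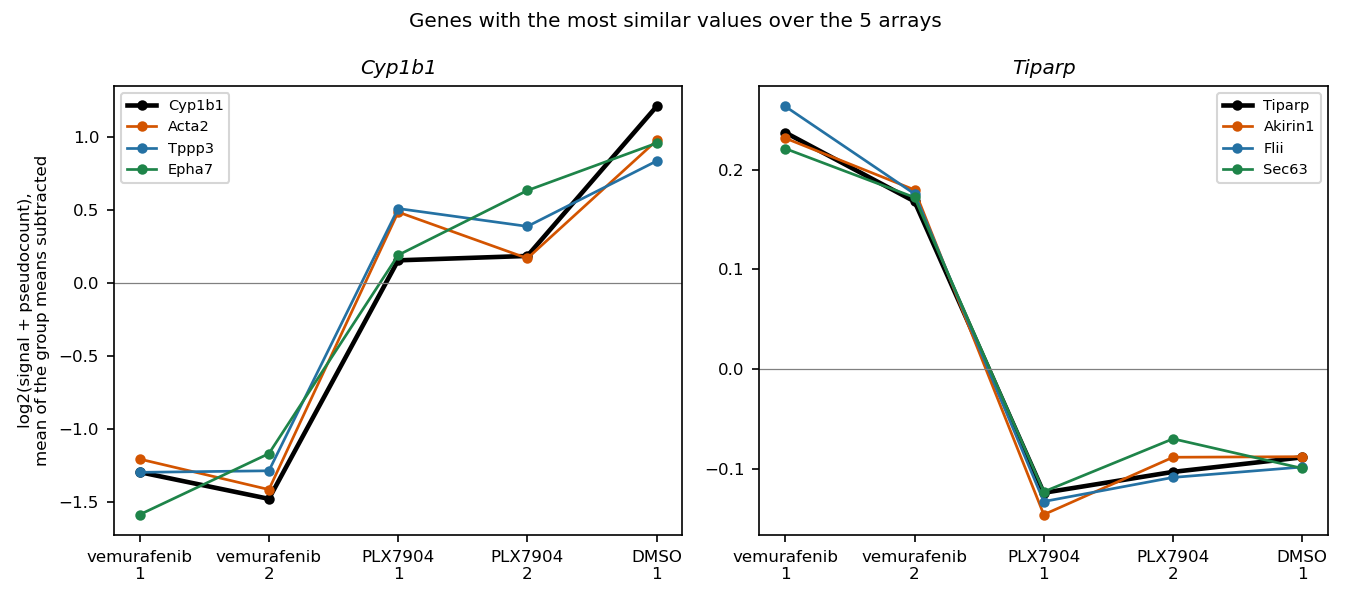
Centred log2 signal on the 5 arrays of Cyp1b1 with Acta2, Tppp3 and Epha7, and of Tiparp with Akirin1, Flii and Sec63. These are the 3 tested genes nearest to each, unnamed gene models passed over. The Cyp1b1 group steps up across vemurafenib, PLX7904 and DMSO, and the Tiparp group is high on the vemurafenib arrays alone.

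Acta2 is also a marker of myofibroblasts, so fibroblast markers are given beside it. Of 6 listed, Pdgfra alone was above the limit, and the collagen genes of the list were below it. The summed fibroblast signal was 373 and 402 on the vemurafenib arrays, 195 and 246 on the PLX7904 arrays and 164 on the DMSO array. Pdgfra itself gave 264 and 231 with vemurafenib, 138 and 132 with PLX7904 and 83.3 with DMSO, the opposite order to that of Cyp1b1, and makes up much of that sum. The simple epithelial markers summed to 38321 and 39217 with vemurafenib, 28360.4 and 28952 with PLX7904 and 26590 with DMSO. The part of either in the result was not tested.

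The neighbouring genes of the pathway were counted in lists. Beside these counts, 10.6% of all tested genes passed with vemurafenib against DMSO, 0% with PLX7904 against DMSO and 13.3% between the compounds. Of the chaperone complex that holds the unliganded receptor, 2 of 5 had a probe set with their symbol alone. These were tested, and 0 passed in any comparison. With vemurafenib against DMSO 1 passed as higher with the mean of probe sets above the limit. The same count came with probe sets of suffix x, s or a left out. Of the relatives in the bHLH-PAS family, 7 of 11 were tested. Clock, the circadian activator, was higher with vemurafenib than with PLX7904 by 0.39 on the log2 scale (adjusted p 0.0267, limma), and 0 passed against DMSO. Its signal was 2424 and 2385 with vemurafenib, 1658 and 2024 with PLX7904 and 2000.4 with DMSO. The call was lost under 6 of 18 other settings, the fits without vemurafenib replicate 1 (0.38, adjusted p 0.0632) and without PLX7904 replicate 1 (0.25, adjusted p 0.0838) among them. Both ways of averaging its probe sets, also among the 6, gave −0.01. Hif1a, which also pairs with ARNT, was at −0.17 against DMSO and did not pass. Of the enzymes from tryptophan to kynurenine, which make natural ligands of AHR, 3 of 9 were tested and 0 passed.

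Among 16 other genes that AHR ligands are reported to induce, 8 were tested. With vemurafenib 2 rose and 1 fell against DMSO, and 4 were higher and 1 lower than with PLX7904. Of all tested genes, 5.43% were higher and 5.21% lower against DMSO, and 6.43% and 6.87% against PLX7904. The list's median was 0.31 against DMSO and 0.32 against PLX7904, beside −0.05 and −0.04 over all genes. With PLX7904 against DMSO 0 passed, at a median of 0.08. The 2 that rose against DMSO were Fos and Ereg. Fos, a subunit of AP-1, rose by 0.90 (adjusted p 0.00269), and Ereg, the EGFR ligand epiregulin, by 0.63 (adjusted p 0.00258) in limma. Neither passed without the intensity trend (adjusted p 0.0945 and 0.105, limma). Both are also well known as transcripts induced by RAS-ERK signalling, for which the list of 9 tested output genes had 6 higher and 0 lower against DMSO and 7 higher and 0 lower against PLX7904. The part of each pathway in these counts was not tested.

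Aldh1a3, which makes retinoic acid from retinal, had 170.1 and 151 with vemurafenib, 67.9 and 59.7 with PLX7904 and 76.5 with DMSO. It was higher with vemurafenib than with PLX7904 by 1.29 on the log2 scale (adjusted p 0.0102, limma), and against DMSO it was at 1.03 (adjusted p 0.0695). The call between the compounds was lost under 3 of the 17 other settings that tested it. These were no intensity trend (adjusted p 0.0534, limma), the mean of all probe sets (1.12, adjusted p 0.0970, limma) and the fit without vemurafenib replicate 1 (1.20). Serpinb2, a protease inhibitor of keratinocytes, and Slc7a5, a transporter of large neutral amino acids that include tryptophan and kynurenine, complete the count and were singled out after their values were seen. Serpinb2 was at 10393 and 10189.6 with vemurafenib, 7844 and 8144 with PLX7904 and 8883 with DMSO, higher than with PLX7904 by 0.36 (adjusted p 0.00286, limma). That Serpinb2 call was lost without the intensity trend (adjusted p 0.106, limma). Slc7a5 had 1618 and 1639 with vemurafenib, 2087 and 1894 with PLX7904 and 2131 with DMSO. It fell by 0.39 against DMSO (adjusted p 0.0395) and was at −0.29 against PLX7904 (adjusted p 0.0485) in limma. The calls were lost under 7 of 17 other settings against DMSO and under 10 of 18 against PLX7904. Median centring gave −0.24 against DMSO (adjusted p 0.348) and −0.14 against PLX7904 (adjusted p 0.489). Leaving out either vemurafenib array ended the Slc7a5 call against DMSO (adjusted p 0.119 and 0.0847), and leaving out either of them or PLX7904 replicate 1 ended the other (0.210, 0.146 and 0.140). Cyp2s1, a P450 that AHR ligands induce, was at −0.17 against DMSO and did not pass.

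**Figure D5:**
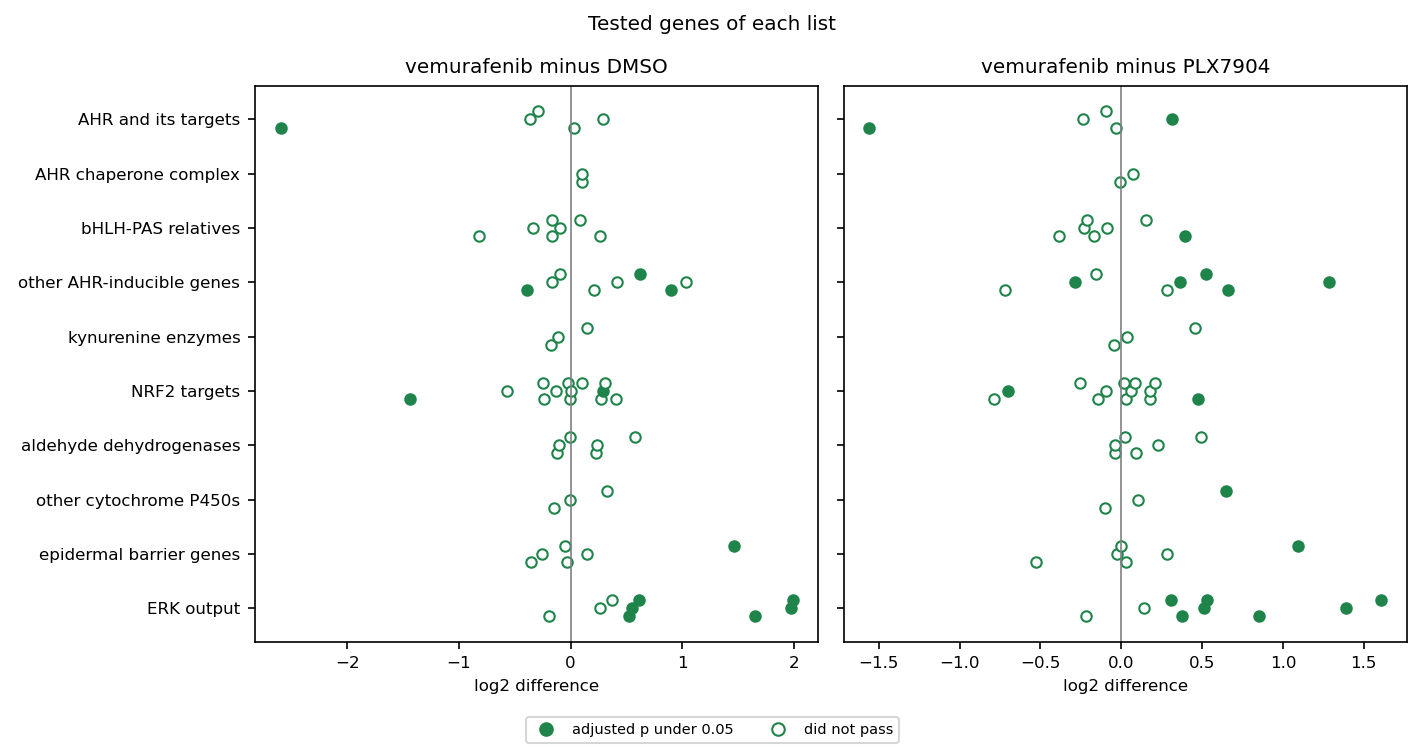
Log2 difference of the tested genes of each list for vemurafenib against DMSO and vemurafenib against PLX7904. Filled points passed in limma at an adjusted p under 0.05, open points did not, and the vertical line is 0. The ERK output list lies mostly to the right of 0, at a median of 0.55 against DMSO, and the leftmost point of the first row is Cyp1b1, at −2.60.

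The programme of NRF2, which shares Nqo1 with AHR, had few calls, in both directions. Shares over all genes with vemurafenib were 5.43% higher and 5.21% lower against DMSO, and 6.43% and 6.87% against PLX7904. Of 13 tested targets, 1 rose and 1 fell with vemurafenib against DMSO, 1 was higher and 1 lower than with PLX7904, and the medians were −0.01 and 0.03. Slc7a11, the cystine and glutamate exchanger, had 416 and 427 with vemurafenib, 544 and 867 with PLX7904 and 1147 with DMSO. It fell by 1.44 against DMSO (adjusted p 0.00303, limma) and lost this call under 2 of 17 other settings. Without the intensity trend it had adjusted p 0.124, and with the mean of all probe sets 0.0503 (limma). Against PLX7904 it was at −0.70 (adjusted p 0.0284), where leaving out PLX7904 replicate 2 gave −0.37 and ended the call (adjusted p 0.107), which was lost under 6 of 18 other settings in all. Gsta4, which conjugates lipid aldehydes, had 21302 and 21369 with vemurafenib, 19599 and 18204 with PLX7904 and 17419 with DMSO. Its difference from DMSO was 0.29 (adjusted p 0.0199, limma), lost under 5 of 17 other settings, among them quantile normalisation (0.12, adjusted p 0.183). Srxn1, the sulfiredoxin, was at 0.47 against PLX7904 (adjusted p 0.0313, limma). The call ended under 8 of 18 other settings, among them the fits without vemurafenib replicate 1, without vemurafenib replicate 2 and without PLX7904 replicate 2 (adjusted p 0.0808, 0.0833 and 0.137).

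Among relatives of the enzymes, few passed. Beside the counts here, 5.43% of all tested genes were higher with vemurafenib than with DMSO and 6.43% higher than with PLX7904. Of the aldehyde dehydrogenases related to Aldh3a1, 6 of 8 were tested and 0 passed in any comparison. Of 12 other P450 genes and their reductase, 3 were tested. Cyp26b1, which degrades retinoic acid, had 691 and 754 with vemurafenib, 456 and 465 with PLX7904 and 576 with DMSO. It was higher with vemurafenib than with PLX7904 by 0.64 (adjusted p 0.00396, limma), with the DMSO array between the compounds. The call was lost without the intensity trend (adjusted p 0.0653, limma). Of 11 epidermal barrier genes reported downstream of AHR, 6 were tested and 1 rose, the cornified envelope gene Ivl. It had 1925 and 1823 with vemurafenib, 813 and 943 with PLX7904 and 675 with DMSO, a difference of 1.47 against DMSO (adjusted p 9.25e-05, limma) and 1.09 against PLX7904 (adjusted p 1.35e-04). Both Ivl calls were lost without the intensity trend (adjusted p 0.0627 and 0.0591, limma). Tgm1, which cross-links the same envelope, was at −0.35 against DMSO and did not pass.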

How the data were processed

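RNA of 5 cultures was hybridised to Affymetrix 3′ arrays, 1 array each. The values are the deposited intensity of 45101 probe sets on a linear scale, made by the authors with MAS5 per the submitters' processing notes, version not given in the sources used here. The mean of the middle 96% of values is near 499.8 on every array, and array medians run between 44.1 and 51.9. The number of arrays limits the precision.

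Gene names came from the platform annotation. Of the probe sets, 34945 had 1 symbol and were used, 932 had several, 9160 had none and 64 were controls. Each gene was represented by its brightest probe set, averaged over the 3 groups. From the deposited intensity, log2(signal + 3.34) was computed, the constant being the 10th percentile of all values. limma 3.58.1 in R 4.3.3 fitted 3 group means to all 5 arrays (lmFit, eBayes with an intensity trend, 2 residual and 8.27 prior degrees of freedom), with two-sided tests and Benjamini-Hochberg adjustment within each comparison. The code was tested on simulated data. Figures were drawn with matplotlib 3.10.9 in Python 3.11.15.

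The 8 genes and all lists were chosen with earlier results of these data known. Named were all 8 genes, up to 3 members of each list that passed with the largest differences and up to 2 brightest that did not, not all of which are given, and the 3 nearest genes of each member that passed. Alternatives changed the constant, filter, normalisation, variance model, probe sets and replicates. Promoters were matched by symbol, 6 of 8.

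Replicate numbers were checked for pairing: over 10852 genes the differences between replicates 1 and 2 of both compounds correlated at −0.0071. No shift shared by equal numbers was seen, and the main fit used no block. The labels do not say what a number shares, and this value cannot exclude that equal numbers were handled together.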

Additional observations from a re-analysis of the deposited data

How the results depend on the processing

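The fall of Cyp1b1 with vemurafenib kept its direction under all 17 other settings and its call under all but 1, the mean of all probe sets (−1.29). Without the intensity trend Cyp1b1 passed narrowly, at adjusted p 0.0439 against DMSO and 0.0423 between the compounds (limma). With vemurafenib against DMSO, 1154 genes passed as reported, 657 with no filter, 43 with no intensity trend and 443 with the mean of all probe sets. Of the members, 1 rose (Tiparp) with the filter at the 75th percentile, median centring, robust variance, either mean of probe sets, or no probe sets of suffix x, s or a, and 0 fell with the mean of all. With PLX7904 against DMSO, genes passing numbered 3 with the higher filter, 5 with centring, 3 with robust variance, 3 without those suffixes and 4 with the replicate block, and 1 member fell (Cyp1b1) in the first 4 of these. Between the compounds 35 passed with no trend and 661 with the mean of all probe sets, against 1443 as reported, with 0 members higher in the first and 0 lower in the second. Leaving out 1 array gave 880 to 1507 genes with vemurafenib against DMSO (0 to 1 members higher, 1 to 2 lower), 0 to 29 with PLX7904 against DMSO (0 to 1 lower) and 900 to 1288 between the compounds (0 to 1 higher, 1 to 2 lower). These ranges leave out treated arrays only, and without the DMSO array 1441 genes passed between the compounds. The replicate block gave 1211, 4 and 1583 genes, Cyp1b1 at −2.56 with vemurafenib against DMSO and −1.56 between the compounds, and changed no member's call. Signs turned for these values, of which the difference of Clock between the compounds alone had passed. Ahr between the compounds was at 0.11 with centring, 0.067 with either mean of probe sets and −0.092 to 0.021 with 1 array left out (above 0 without PLX7904 replicate 2), and with PLX7904 against DMSO at −0.018 with either mean. Arnt between the compounds was at 0.054 with centring and ran from −0.65 without vemurafenib replicate 2 to 0.46 without vemurafenib replicate 1 (0.37 without PLX7904 replicate 1). Against DMSO it ran from −0.85 to 0.27 without the same arrays with vemurafenib, and from −0.66 without PLX7904 replicate 1 to 0.26 without PLX7904 replicate 2 with PLX7904. Cyp1b1 with PLX7904 against DMSO was at 0.012 with the mean of all. The call of Clock between the compounds turned to −0.011 with either mean, which gave −0.32 against DMSO. With vemurafenib against DMSO the median of all genes was 0.10 with centring, against −0.05 as reported. The cause was not tested. Low signal limits Ahrr, Cyp1a1 and Nqo1.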
